A study of Homo sapiens with 2 samples.

Results

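Genes that oxidise and conjugate foreign and endogenous small molecules were examined in CWR22rv1 cells, a human castration-resistant prostate cancer line, with and without Akt1 and Akt2. Members were chosen by symbol, with earlier results of these data known. They were cytochrome P450 genes (56), glutathione transferases with the microsomal MGST genes (20), sulfotransferases (13) and epoxide hydrolases (4). The partner genes POR, ARNT and AHRR were included. This gave 96 of the 19607 genes listed by the authors. RNA was sequenced from 1 library of CWR22rv1 cells with both Akt1 and Akt2 knocked out by CRISPR/Cas9 (Akt1/2 DKO) and 1 library of control CWR22rv1 cells labelled wild type, neither with a treatment in the labels. The knockout cells came from monoclonal isolates picked after co-transfection of both guide plasmids and puromycin selection, and the labels do not name the clone, so an effect of the knockout and a difference of 1 clone cannot be told apart.

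Cytochrome P450 enzymes insert an oxygen atom into drugs, pollutants, steroids, fatty acids and vitamins, using electrons that the reductase encoded by POR delivers in the endoplasmic reticulum. Epoxide hydrolases open the reactive epoxides that such reactions leave. Glutathione transferases and sulfotransferases then attach glutathione or sulfate, which makes the product easier to export. The dioxin receptor AHR pairs with ARNT to switch on the CYP1 genes, and AHRR is its repressor and target. In prostate cancer the family is best known for the silencing of GSTP1 by promoter methylation.

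Estimated reads totalled 9970825 for control and 10718654 for Akt1/2 DKO. A fold change here is the ratio of reads, Akt1/2 DKO to control, after scaling by edgeR's TMM method, and its 95% interval is exact and covers counting error only. Where a gene had 0 reads in one library, 3 reads stood in for it. Its fold, written "at least", is then a lower bound on the ratio of the reads counted. With counting error the interval can start below that fold. With 1 library per condition there was no replicate check and no p-value, and in bulk RNA fewer cells of a type cannot be told apart from less RNA per cell. A gene is called at 1.5-fold or more when both libraries together held at least 10 reads, and "rose" or "fell" is used where, in addition, the interval left out no change. AKT1 had 2645 reads in control and 591 in Akt1/2 DKO (4.96-fold lower), and AKT2 2362 and 667 (3.93-fold lower), so both targeted genes were lower in the library labelled as their knockout, though not absent from it. Of the 9 prostate epithelial markers examined, 9 were above 3 reads in both libraries. The 6 fibroblast markers summed to 1035 and 217 reads, carried by VIM (897 and 84). COL3A1 was lower as well (74 and 9), while COL1A1 was higher (55 and 106). Of the 4 fibroblast markers compared, 2 were called higher and 2 lower. The 4 leukocyte markers summed to 55 and 79 reads.

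Of the 96 members, 36 had no read in either library, 18 had between 1 and 9 reads in both libraries together, and 42 could be compared. Of these 42, 7 were called higher and 14 lower in Akt1/2 DKO, while 21 lay within 1.5-fold. Across all genes tested, 30.9% were called, 15.9% higher and 15.0% lower. The share called among the members, 21 of 42, was above that of all genes, but many members had few reads. Among the 24 members with at least 100 reads 8 were called (33.3%), beside 23.2% of all such genes. Among the 18 members with 10 to 99 reads 13 were called (72.2%), beside 66.5% of all such genes. The median log2 fold change of the 42 members was -0.30, and that of all genes tested was 0.0063. Of the 21 called members, 7 rose and 12 fell by the stricter definition, which was met by 13.9% and 13.2% of all genes.

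**Figure D1:**
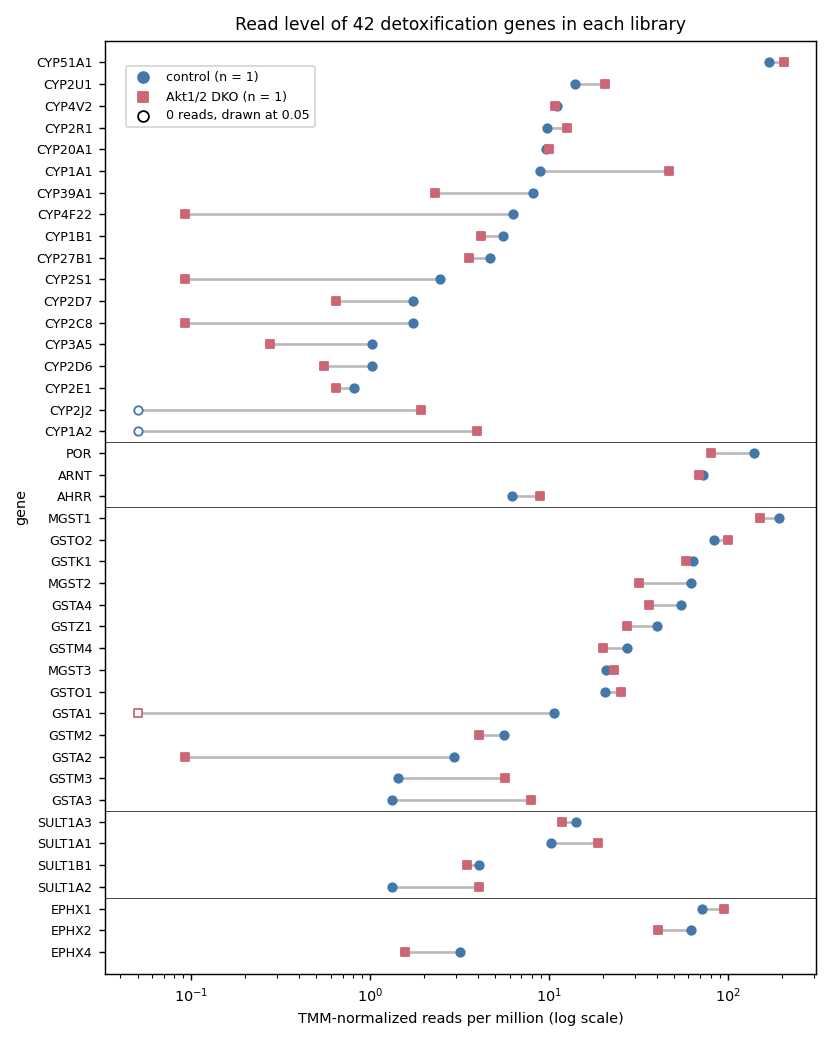
Level after TMM scaling, in RPM (reads scaled to library size) on a log axis, for the 42 members with at least 10 reads in both libraries together, grouped as cytochrome P450, partner genes, glutathione transferases, sulfotransferases and epoxide hydrolases. Circles are the control library and squares the Akt1/2 DKO library, 1 library each, and open symbols stand for 0 reads. CYP1A1, GSTA3 and GSTM3 lay to the right of control in Akt1/2 DKO, and CYP4F22, GSTA1 and GSTA2 far to the left.

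The clearest rise among the P450 genes was that of the CYP1A pair. CYP1A1 (ENSG00000140465), an AHR-induced oxidase of polycyclic hydrocarbons, had 87 reads in control and 510 in Akt1/2 DKO, 5.29-fold higher (95% interval 4.21 to 6.72). CYP1A2 (ENSG00000140505), its neighbour and the caffeine-oxidising enzyme of liver, had 0 and 43 reads, at least 12.9-fold higher, and the interval started at 10.1. Both thus stood higher in Akt1/2 DKO, CYP1A2 from a level at which no read was counted. CYP1B1 (ENSG00000138061), the third CYP1 enzyme, which also oxidises estradiol, had 54 and 45 reads (log2 fold change -0.41, interval -1.02 to 0.19). A difference of CYP1B1 was therefore not detectable at this depth, although the AHR is known to act on it too.

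CYP1A1 lies on chromosome 15 from 74719542 to 74725610 on the minus strand, and CYP1A2 from 74748844 to 74756202 on the plus strand (GENCODE release 29, GRCh38), so that the pair is transcribed away from a shared interval. The bases just before each RefSeq start (build GRCh38.p14, 250 bases upstream of it) are shown because the genes rose together. Capitals mark the core GCGTG to which the AHR with ARNT is known to bind, searched on both strands (GCGTG or CACGC). The windows are chr15:74725529-74725778 on the minus strand and chr15:74748595-74748844 on the plus strand.
CYP1A1: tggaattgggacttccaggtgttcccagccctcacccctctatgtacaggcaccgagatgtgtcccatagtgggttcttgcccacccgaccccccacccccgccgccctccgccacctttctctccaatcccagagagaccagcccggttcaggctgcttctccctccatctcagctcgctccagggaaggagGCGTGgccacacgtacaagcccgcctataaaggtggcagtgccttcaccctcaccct
CYP1A2: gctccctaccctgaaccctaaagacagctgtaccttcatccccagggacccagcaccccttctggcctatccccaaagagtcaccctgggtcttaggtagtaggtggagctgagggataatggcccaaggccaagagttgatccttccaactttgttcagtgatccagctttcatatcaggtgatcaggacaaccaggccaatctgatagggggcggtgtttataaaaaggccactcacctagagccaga
The window of CYP1A1 held 1 match, with its first base at -57, and that of CYP1A2 held 0. Bases further upstream were not searched, so matches there would not be seen. The same core occurred in 32.2% of 35116 RefSeq promoter windows of this length, and in 11 of the 33 compared members whose window was given (33.3%). The windows of the CYP1A pair were 47.6% identical when aligned with gaps.

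The regulators of the CYP1 genes moved in part with them. AHR, the receptor, is no member by symbol and had 120 and 416 reads, 3.13-fold higher (95% interval 2.55 to 3.86). ARNT (ENSG00000143437), its obligate partner, had 711 and 748 reads (log2 fold change -0.08, interval -0.23 to 0.07). ARNT2, a paralog of ARNT, had 75 and 176 reads, 2.12-fold higher (1.61 to 2.81). The receptor and the paralog thus rose, while the partner in common use stayed within 1.5-fold. AHRR (ENSG00000063438), the repressor, had 61 and 97 reads, 1.43-fold higher (1.03 to 2.01), short of the threshold. The AHR targets with over 100 reads stood closer to control, TIPARP at 214 and 296 reads (1.25-fold) and NQO1 at 651 and 843 reads (1.17-fold). ALDH3A1, also a target, had 3 reads in each library, too few for a fold, and UGT1A6, under 10 reads in all, had 7 in control and 0 in Akt1/2 DKO. In the list of 10 AHR pathway genes that are no members, 8 could be compared, with a median log2 fold change of 0.30. Of these, 2 were called higher and 1 lower (37.5%, beside 30.9% of all genes tested). The one called lower was HSP90AA1, a chaperone that holds the receptor in the cytoplasm, with 24466 and 16590 reads (1.64-fold lower).

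AHR lies on chromosome 7 from 16916359 to 17346152 among genes that were also higher. Of the 20 nearest compared genes, within 4626 kb, 12 were called higher and 2 lower in Akt1/2 DKO, and their median log2 fold change was 1.21. The median of chromosome 7 as a whole was 0.09, and the part of the region in the value of AHR was not tested. Around CYP1A1 the nearest 20 genes had a median of 0.26, with 5 called higher and 0 lower. Immediate neighbours of the CYP1A pair with more reads stayed within 1.5-fold, EDC3 at 546 and 721 reads and CSK at 772 and 1105 reads, while LMAN1L (1 and 11 reads) and ULK3 (616 and 1103) were called higher.

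**Figure D2:**
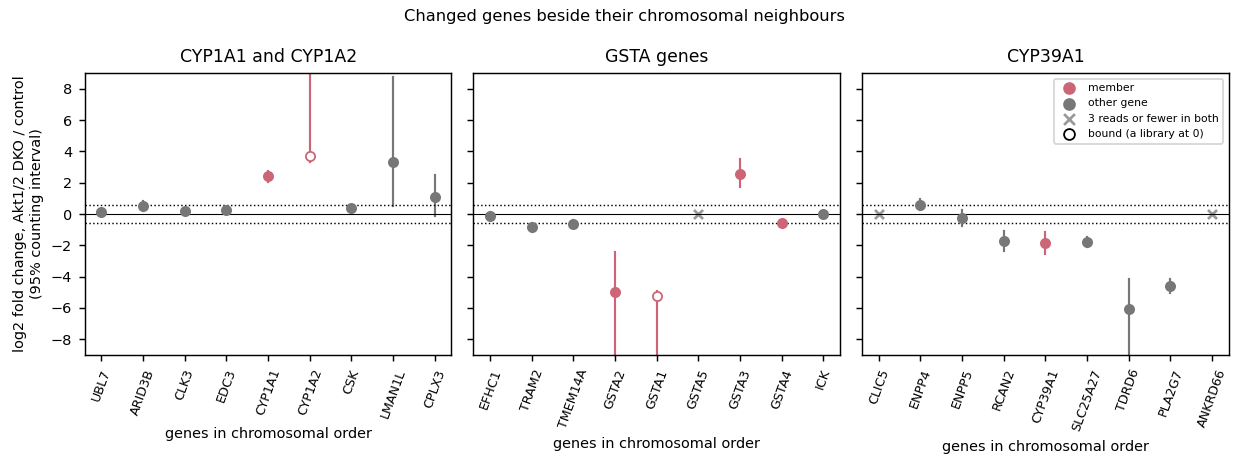
The log2 fold change, Akt1/2 DKO to control, with its 95% counting interval (cut at the plot's edge) for genes in chromosomal order around CYP1A1 (left), GSTA1 (middle) and CYP39A1 (right). Members are coloured and other genes grey, dotted lines mark 1.5-fold, open symbols are bounds and crosses mark genes with 3 reads or fewer in both libraries. GSTA1 and GSTA2 lay far below GSTA3 and GSTA4, whereas RCAN2, SLC25A27, TDRD6 and PLA2G7 lay below 0 together with CYP39A1.

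POR (ENSG00000127948), on which every microsomal P450 depends for electrons, fell 1.74-fold, with 1373 reads in control and 873 in Akt1/2 DKO (interval 1.60 to 1.90). Its neighbours RHBDD2 (1764 and 1247 reads) and TMEM120A (327 and 213 reads) were lower by 1.57-fold and 1.70-fold, and the part of the region in the value of POR was not tested. The 12 further electron donors of the P450 system compared had a median log2 fold change of -0.20. Of these, 0 were called higher and 1 lower (8.33%, beside 30.9% of all genes tested). That one was CYB5R2, a cytochrome b5 reductase, with 19 and 5 reads. CYB5A, the cytochrome b5 that aids several P450 reactions, had 519 and 399 reads (1.44-fold lower). On the mitochondrial side, ferredoxin FDX1 had 579 and 452 reads (1.42-fold lower) and its reductase FDXR 233 and 371 reads (1.44-fold higher), both within 1.5-fold. The outer mitochondrial cytochrome b5, CYB5B, had 1970 and 2670 reads. The reductase of the microsomes was therefore the most changed of the well-covered donors.

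Of the 56 P450 genes, 18 could be compared, with 3 called higher and 7 lower, and 23 had no read in either library. Across all genes tested 30.9% were called. Most of the called P450 genes had 10 to 99 reads, where 66.5% of all genes were called. The third gene called higher, CYP2J2 (ENSG00000134716), makes epoxides of arachidonic acid and went from 0 to 21 reads, at least 6.31-fold higher (lower limit 4.70). CYP2U1, which hydroxylates long-chain fatty acids, had 137 and 222 reads, 1.46-fold higher (1.18 to 1.82), and passed 1.5-fold when scaled by total counts or the upper quartile.

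P450 genes that fell came down to a single read in several cases. CYP4F22 (ENSG00000171954), the omega-hydroxylase of very long fatty acids that builds skin ceramides, fell from 62 reads to 1, a ratio of 68.7 with a wide interval of 11.9 to 2758. CYP2S1 fell from 24 reads to 1 (26.6-fold, 4.34 to 1094) and CYP2C8, which oxidises arachidonic acid and paclitaxel, from 17 reads to 1 (18.9-fold, 2.95 to 788). The upper limits show that 1 read fixes the size of these falls poorly. Next to CYP4F22 the gene PGLYRP2 had 11 and 0 reads and CYP4F8 had 6 and 0, while WIZ (772 and 986 reads) and AKAP8L (586 and 595 reads) stayed within 1.5-fold. Among the neighbours of CYP2C8 on chromosome 10, PDLIM1 (231 and 152 reads) was also called lower.

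CYP39A1 (ENSG00000146233), the 24-hydroxycholesterol hydroxylase of bile acid synthesis, fell from 80 to 25 reads (3.55-fold, 2.24 to 5.80). It lies on chromosome 6 from 46549580 to 46652830, where of the 20 nearest compared genes 11 were called lower and 2 higher, with a median log2 fold change of -1.15. Its neighbours SLC25A27 (355 and 113 reads), TDRD6 (119 and 2) and PLA2G7 (888 and 41) were called lower as well. The fall of CYP39A1 was thus shared with a stretch of its chromosome, and the part of that stretch was not tested.

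CYP51A1 (ENSG00000001630), the lanosterol demethylase of cholesterol synthesis, was the most abundant P450 gene and held 65.8% of the reads of the family in control and 63.2% in Akt1/2 DKO. It had 1667 and 2236 reads, 1.21-fold higher (1.14 to 1.29), which is within 1.5-fold, and 88.5% of its 50-base transcript windows also occur in the annotated gene AC000120.2. The summed P450 reads were higher in Akt1/2 DKO, 254 RPM of the unscaled library total in control (95% interval 244 to 264) and 330.3 in Akt1/2 DKO (320 to 341), although more P450 genes were called lower than higher. The other compared P450 genes with housekeeping or vitamin roles moved little. CYP2R1, the 25-hydroxylase of vitamin D, had 96 and 137 reads, and CYP27B1, the 1-alpha-hydroxylase that completes the active hormone, had 46 and 39. The intervals of CYP2R1 (-0.02 to 0.76 on the log2 scale) and CYP27B1 (-1.04 to 0.26) both included no change. CYP4V2, a fatty acid hydroxylase of the retina, had 109 and 117 reads, and the orphan enzyme CYP20A1 had 94 and 108. For CYP24A1, which breaks active vitamin D down, no read was counted in either library, whereas the vitamin D receptor VDR rose from 163 to 608 reads (3.36-fold, 2.83 to 4.02).

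The drug-oxidising genes CYP2D6 (10 and 6 reads), CYP3A5 (10 and 3) and CYP2E1 (8 and 7) were near the limit of counting. CYP2D7 (17 and 7 reads), the neighbour of CYP2D6, was near it as well. The intervals of CYP2D6, CYP3A5 and CYP2E1 included no change. CYP2D6 and CYP2D7 are near-identical copies, and 37.6% of the 50-base windows of the CYP2D6 transcript also occur in CYP2D7. Summed, the pair had 27 and 13 reads, 2.30-fold lower (1.15 to 4.86). For CYP3A4, CYP3A7 and the CYP4A genes no read was counted in either library, so that these enzymes of liver were not detectable at this depth. A count of 0 allows up to 0.301 RPM in control and 0.28 in Akt1/2 DKO. The same held for the androgen-making enzymes CYP11A1 and CYP17A1 and for aromatase CYP19A1. Of the 6 steroid-synthesis P450 genes, CYP21A2 alone had a read, 1 in Akt1/2 DKO.

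**Figure D3:**
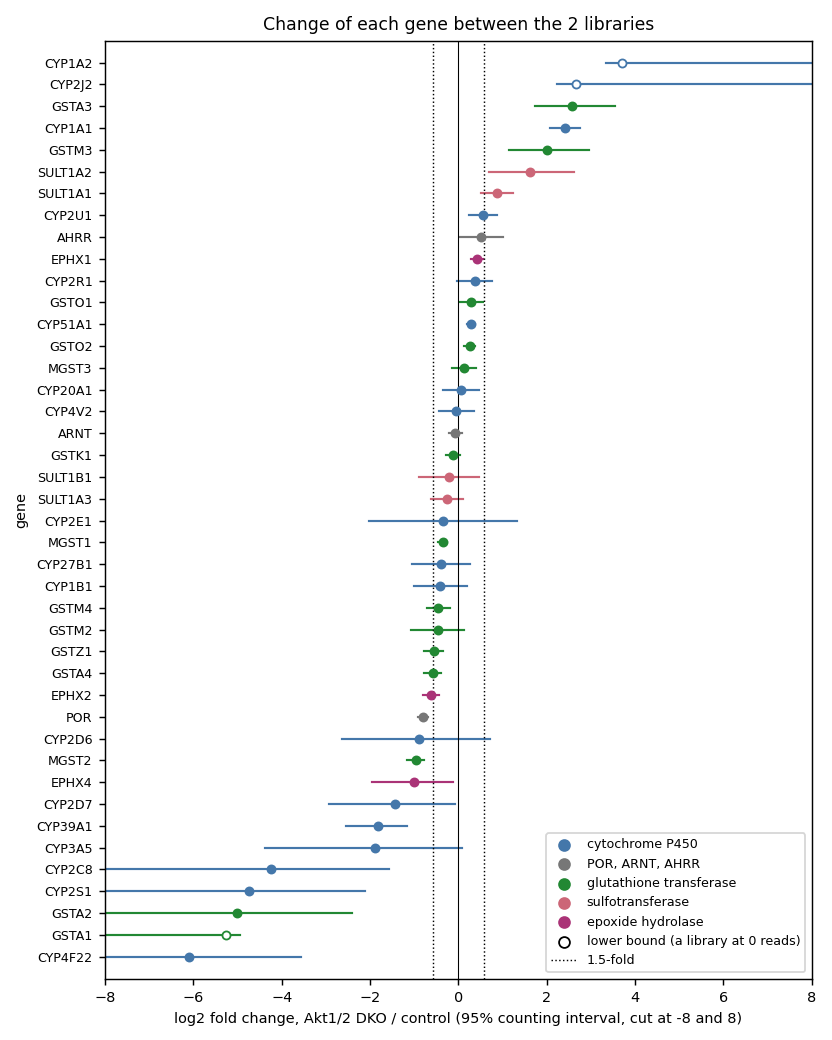
The log2 fold change, Akt1/2 DKO to control, of the 42 compared members, sorted by value, with the 95% counting interval cut at -8 and 8. Colours mark the gene family, dotted lines 1.5-fold and open symbols bounds from a library at 0 reads. CYP1A2, CYP2J2, GSTA3 and CYP1A1 stand at the top and CYP4F22, GSTA1 and GSTA2 at the bottom.

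Epoxide hydrolases parted between the microsomal and the soluble enzyme. EPHX1 (ENSG00000143819), which hydrolyses epoxides of xenobiotics in microsomes, had 699 and 1032 reads, 1.33-fold higher (1.21 to 1.47). EPHX2 (ENSG00000120915), the soluble hydrolase of fatty acid epoxides, fell from 608 to 440 reads (1.53-fold, 1.35 to 1.74). EPHX4 fell from 31 to 17 reads (2.02-fold, 1.09 to 3.89), and EPHX3 had 1 read in each library. EPHX1 thus stood higher and EPHX2 lower, and the sum of the 4 genes was level, with a log2 fold change of 0.0053 (-0.10 to 0.11). The fall of EPHX2 passed 1.5-fold narrowly and was below it when scaled by total counts, by the upper quartile or with the authors' FPKM. The genes on either side of EPHX2, CHRNA2 (158 and 105 reads) and CLU (10120 and 5632), were also called lower. Of the 20 nearest compared genes 4 were called higher and 4 lower, with a median log2 fold change of -0.02. The part of the region in the value of EPHX2 was not tested.

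Glutathione transferases were the most abundant of these families, with 578 RPM in control (564 to 593) and 497 in Akt1/2 DKO (483 to 510.1). Of 20 genes 14 could be compared, with 2 called higher and 4 lower, beside 30.9% of all genes called in either direction. The other 6 had no read in either library. The alpha class on chromosome 6 held the extremes of this family in both directions. GSTA1 (ENSG00000243955), an abundant transferase of liver that also isomerises steroids, had 104 reads in control and 0 in Akt1/2 DKO, at least 38.4-fold lower (lower limit 30.7). GSTA2 (ENSG00000244067), its nearest relative, fell from 29 reads to 1 (32.1-fold, 5.33 to 1313). In contrast GSTA3 (ENSG00000174156), the most active isomerase of steroid hormone precursors, rose from 13 to 86 reads (5.97-fold, 3.31 to 11.7). GSTA4 (ENSG00000170899), which removes the lipid peroxidation product 4-hydroxynonenal, fell from 532 to 393 reads (1.501-fold, 1.32 to 1.71), at the threshold itself, and was below it when scaled by total counts, by the upper quartile or with the authors' FPKM. All 4 compared GSTA genes were thus called, 3 lower and 1 higher, within 1 cluster.

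The cluster runs from GSTA2 (52750089 to 52763569) over GSTA1 (52791664 to 52803910) and GSTA3 (52896639 to 52909685) to GSTA4 (52977948 to 52995378) on chromosome 6, all on the minus strand. GSTA5, between GSTA1 and GSTA3, had no read in either library. On its flanks TMEM14A was 1.54-fold lower (443 and 319 reads) and ICK was within 1.5-fold (815 and 913 reads). The median of the nearest 20 compared genes was 0.05 on the log2 scale. The 250 bases upstream of the RefSeq starts (GRCh38.p14) are shown for the pair that fell and for the neighbour that rose. They are chr6:52803817-52804066, chr6:52763476-52763725 and chr6:52909699-52909948, all on the minus strand. Capitals mark the bases that differ between GSTA1 and GSTA2.
GSTA1: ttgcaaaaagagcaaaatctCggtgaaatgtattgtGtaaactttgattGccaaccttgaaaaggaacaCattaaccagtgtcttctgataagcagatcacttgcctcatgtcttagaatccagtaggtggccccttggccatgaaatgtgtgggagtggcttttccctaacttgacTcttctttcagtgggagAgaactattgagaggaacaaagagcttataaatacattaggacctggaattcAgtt
GSTA2: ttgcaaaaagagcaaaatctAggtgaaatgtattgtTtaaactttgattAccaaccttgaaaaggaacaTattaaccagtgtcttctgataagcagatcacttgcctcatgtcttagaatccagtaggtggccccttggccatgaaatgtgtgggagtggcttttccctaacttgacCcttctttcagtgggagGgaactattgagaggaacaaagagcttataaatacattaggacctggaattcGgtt
GSTA3: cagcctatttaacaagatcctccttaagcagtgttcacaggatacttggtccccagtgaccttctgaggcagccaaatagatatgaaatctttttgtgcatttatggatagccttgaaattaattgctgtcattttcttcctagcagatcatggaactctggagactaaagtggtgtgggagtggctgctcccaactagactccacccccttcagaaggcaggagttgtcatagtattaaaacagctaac
GSTA1 and GSTA2 carried the same base at 243 of 250 positions (97.2%) and differed at 7. GSTA3 was 53.6% identical to GSTA1 when aligned with gaps, and GSTA4 50.2%. GSTA5, which had no read in either library, was 51.4% identical to GSTA1. Values this close were not used to rank the windows. The part of the window in these changes was not tested. The antioxidant response element (TGACNNNGC, both strands) was found in none of the 3 windows shown and in 10.9% of all promoters. Within the transcripts, 23.9% of the 50-base windows of GSTA1 also occur in GSTA2, so that reads can be shared between them. Summed, the pair had 133 reads in control and 1 in Akt1/2 DKO.

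GSTA1 and GSTA2 are best known from liver, and ALB, the albumin gene, was present in the control library. ALB had 1244 and 120 reads, 11.5-fold lower in Akt1/2 DKO (9.52 to 14.0). Of the 7 hepatocyte markers examined, 3 were above 3 reads in control and 1 in Akt1/2 DKO, with 1254 and 120 reads in all. APOA1 had 6 and 0 reads and TTR 4 and 0, and APOB, SERPINA1, FGB and AHSG had no read in either library. The part of these genes in the fall of GSTA1 and GSTA2 was not tested.

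In the mu class on chromosome 1, GSTM3 (ENSG00000134202), known from brain and testis, rose from 14 to 62 reads (3.99-fold, 2.21 to 7.73). GSTM4 had 268 and 217 reads and GSTM2 had 55 and 44 (1.37-fold and 1.39-fold lower). Of the 50-base windows of the GSTM2 transcript 74.5% occur in another gene, most often GSTM1, so the value of GSTM2 is uncertain, whereas for GSTM3 the share was 1.45%. GSTM1, which is deleted in many people, and GSTM5 had no read in either library. GSTM3 was the one mu gene past 1.5-fold, and the interval of GSTM4 (1.14 to 1.65) also left out no change.

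GSTP1, the pi-class enzyme silenced in most prostate cancers, had no read in either library. The theta genes GSTT2 and GSTT2B were at 0 as well. The remaining cytosolic transferases were well covered and stayed within 1.5-fold. GSTO1 and GSTO2, the omega enzymes that reduce dehydroascorbate and arsenic acids, had 202 and 274 reads (1.22-fold higher) and 820 and 1082 reads (1.19-fold higher). GSTK1, of mitochondria and peroxisomes, had 621 and 632 reads. GSTZ1, the maleylacetoacetate isomerase of tyrosine breakdown, had 394 and 296 reads, 1.48-fold lower (1.27 to 1.72).

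The microsomal MGST genes differed among themselves. MGST1 (ENSG00000008394), which guards membranes against peroxides, had 1901 and 1641 reads (1.28-fold lower). MGST2 (ENSG00000085871), which can make leukotriene C4, fell from 608 to 346 reads (1.95-fold, 1.70 to 2.23). MAML3, which overlaps MGST2 in the annotation, had 644 and 203 reads, and no strand setting is given that would keep their reads apart. MGST3 had 205 and 249 reads, and its interval (-0.14 to 0.41 on the log2 scale) included no change. By FPKM, which allows genes to be compared per length, MGST1 ranked 1st of the 96 members in both libraries (217 and 203 FPKM). MGST2 went from rank 2 (78.4 FPKM) to rank 5 (40.8), and CYP51A1 from rank 3 (66.4) to rank 2 (80.8). EPHX1 went from rank 6 (54.4) to rank 3 (77.3) and POR from rank 5 (56.1) to rank 6 (32.3). CYP1A1 climbed from rank 22 (4.61 FPKM) to rank 13 (21.1). These ranks describe levels in 1 library each, and neighbours in the order can lie within error.

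Sulfotransferases had few reads, 29.8 RPM in control (26.5 to 33.4) and 38.6 in Akt1/2 DKO (35.0 to 42.5). Of 13 genes 4 could be compared, and 2 were called, both higher, beside 30.9% of all genes called in either direction. SULT1A1 (ENSG00000196502), the main phenol sulfotransferase, rose from 101 to 204 reads (1.82-fold, 1.43 to 2.34). SULT1A2 rose beside it from 13 to 44 reads (3.05-fold, 1.62 to 6.18). SULT1A3, which sulfates dopamine, had 138 and 128 reads, with an interval from -0.62 to 0.10 on the log2 scale. SULT1B1, which sulfates thyroid hormone, had 40 and 38 reads. The phenol enzymes thus rose and the catecholamine enzyme stayed within 1.5-fold.

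The SULT1A genes are close copies. Their estimated reads were among those of 9 members that were not whole numbers, so that reads had been divided among genes. SULT1A1 shares 24.7% of its 50-base windows with other genes, SULT1A2 26.7% and SULT1A3 98.6%, mostly with a read-through transcript. Summed, SULT1A1 and SULT1A2 had 114 and 247 reads, 1.95-fold higher (1.56 to 2.46), so the rise did not depend on how reads were divided between this pair. SULT1A3 with SULT1A4 had 141 and 128 reads. The gene sharing most windows with SULT1A1 was SULT1A3 (15.3%). The contrast between SULT1A1 and SULT1A3 rests on how reads were divided between them, which was not tested. SULT1E1, the estrogen sulfotransferase, and SULT2A1, the DHEA sulfotransferase, had no read in either library, and SULT2B1, the cholesterol sulfotransferase, had 1 read in control.

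Genes that supply these enzymes were described as lists, beside 30.9% of all genes called. For glutathione, 4 of 12 compared genes rose and 1 fell, with a median log2 fold change of 0.13. GCLM, the modifier subunit of the rate-limiting ligase, rose from 275 to 1104 reads (3.62-fold, 3.17 to 4.15), while the catalytic subunit GCLC had 686 and 779 reads. GGT1, which breaks glutathione down outside the cell, rose from 266 to 546 reads and SLC3A2, the heavy chain of the cystine carrier, from 1599 to 2956. GGT7 fell from 413 to 269 reads, the glutathione synthetase GSS had 1254 and 992, and the glutathione reductase GSR had 3739 and 4153 reads, with a log2 fold change of 0.0027. The modifier subunit thus moved without its partner. For sulfate, PAPSS1, which makes the sulfate donor PAPS, fell from 3262 to 1721 reads (2.10-fold, 1.98 to 2.23), and the sulfate carrier SLC26A2 rose from 208 to 349. In that list 2 of 11 compared genes rose and 2 fell (median -0.14), with STS (53 and 89 reads) and SUMF1 (319 and 219 reads) as the others. The other glutathione transferase-like genes, 7 compared, held 0 calls (median 0.11). The chloride channel CLIC1 (3787 and 6134 reads, 1.46-fold higher) and VARS (3097 and 4163) stood highest in it, and GSTCD (449 and 355 reads) and GDAP1 (352 and 291) lowest.

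**Figure D4:**
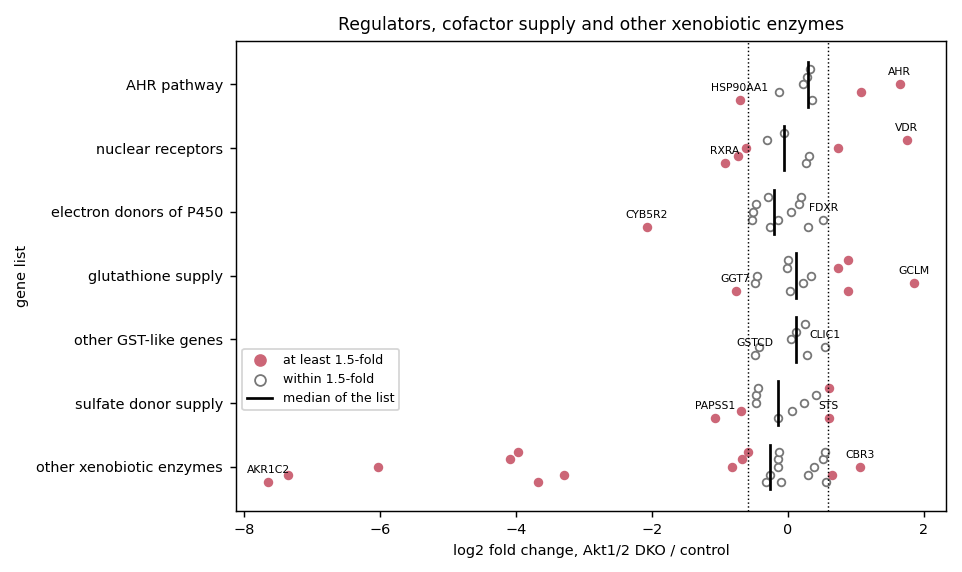
The log2 fold change, Akt1/2 DKO to control, of each compared gene (at least 10 reads in both libraries together) in 7 lists, with filled points at least 1.5-fold from control, open points within it and a bar at the list's median. The lowest and highest gene of each list is named. AHR, VDR and GCLM stand at the right, and AKR1C2 at the far left among the other xenobiotic enzymes.

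Among the nuclear receptors known to control P450 genes, 9 of 15 could be compared, with a median log2 fold change of -0.05. Of these, 2 were called higher and 3 lower (55.6%, beside 30.9% of all genes tested). VDR was the largest rise and RXRA, its dimer partner, fell from 242 to 141 reads (1.90-fold, 1.54 to 2.36). RARA (153 and 102 reads) and PPARA (306 and 222 reads) fell and RARB (26 and 48 reads) rose, while NR1H2, an oxysterol receptor, had 426 and 583 reads. By the authors' FPKM the changes of RARA and PPARA were below 1.5-fold, and that of PPARA also when scaled by total counts or the upper quartile. The liver receptors NR1I2 and NR1I3 had at most 3 reads in a library, and HNF4A had none in either.

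Calls among the other xenobiotic enzymes were mostly lower. Of 33 listed genes 23 could be compared, with 2 called higher, 10 lower and 11 within 1.5-fold, and the median log2 fold change was -0.26. Across all genes tested 15.9% were called higher and 15.0% lower. MAOA, which oxidises serotonin and other amines, fell from 1028 to 7 reads (163-fold, 78.7 to 406). The AKR1C genes, aldo-keto reductases that convert steroids, all fell among the 3 compared, AKR1C2 from 540 to 3 reads (199.6-fold, 67.9 to 971), AKR1C1 from 117 to 2 and AKR1C3 from 295 to 21. Their reads can be shared, since they are close copies. Other aldo-keto reductases were split. AKR7A2 had 805 and 594 reads and was called lower at the threshold itself (1.502-fold, 1.35 to 1.67). AKR1A1 had 410 and 649 reads (1.43-fold higher, 1.26 to 1.62) and AKR7A3 had 70 and 113 (1.46-fold higher, 1.07 to 1.99). ALDH1A1, which makes retinoic acid, fell from 122 to 8 reads and aldehyde oxidase AOX1 from 46 to 4. CBR3, a carbonyl reductase, rose from 90 to 208 reads (2.09-fold, 1.62 to 2.70), and NAT1, an arylamine acetyltransferase, from 63 to 109. The N-methyltransferase INMT fell from 44 to 5 reads (9.76-fold, 3.88 to 31.5). CBR1 (668 and 966 reads) and ADH5 (1264 and 1280) stayed within 1.5-fold.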

How the data were processed

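RNA from 1 library of Akt1/2 DKO and 1 library of control CWR22rv1 cells was analysed. For each gene the authors deposited an estimated count, not scaled for depth, and an FPKM value in both libraries. The submitters' processing notes name fastp 0.20.0, TopHat, Cufflinks, edgeR and the build GRCh38.p10, without saying which made these values, and the strand setting of the counting is not given in the sources used here. Pathway names were read from the authors' expression table. The authors' deposited tables of their own comparison (fold change, p-value, FDR, ontology classes) and of the correlation of the libraries were not used.

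Estimated counts were rounded to integers, and 13318 genes whose libraries together held at least 10 reads were compared. With TMM factors (edgeR 4.0.16, R 4.3.3) the Akt1/2 DKO library was 1.109 times as large as the control library. Intervals are exact 95% binomial (Clopper-Pearson, scipy 1.17.1, Python 3.11.15) given a gene's reads over both libraries, for counting error alone. The steps were tested on simulated data. Gene positions come from GENCODE release 29 (19571 of 19607 identifiers found), promoter windows from RefSeq (71 of 96 members matched), and 50-base windows of 1 principal or longest transcript per gene were searched in all GENCODE transcripts.

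Members with at least 100 reads in both libraries together, called members, members that other values turn on, AKT1, AKT2, AHR, and in each list the largest rises and falls among genes with at least 100 reads are named, with other members as examples. Members and lists were chosen with earlier results of these data known. Neighbouring genes, markers and other genes that a value turns on were named after their values were seen. Alternatives were total count, DESeq2 1.42.0 and upper-quartile scaling, ratios of the authors' FPKM, stricter or no read filters, calls at 2-fold, calls whose interval left out no change, a prior count of 1, and sums of near-identical genes.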

Additional observations from a re-analysis of the deposited data

How the results depend on the processing

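No called gene changed sign under an alternative, and CYP4V2, within 1.5-fold, turned from below to above 0 under upper-quartile scaling. Of the named genes, 227 of 229 values stayed within their counting interval. By FPKM, MGST1 had a log2 ratio of -0.10 and AKT1 one of -2.65; the cause was not tested. The number of members called lower, 14, became 7 with at least 50 reads in both libraries together, 6 with at least 10 reads in each library and 9 with a 2-fold threshold, since fewer genes qualify. The called P450 genes, 10, became 3 and 2 under those read filters. The called epoxide hydrolases, 2, became 1 under total count or upper-quartile scaling, FPKM, at least 50 reads and 2-fold. A 2-fold threshold left 1 sulfotransferase, 1 nuclear receptor, 1 gene of glutathione supply and 1 of sulfate supply. FPKM left 3 nuclear receptors. Total count scaling, upper-quartile scaling and FPKM each added 1 glutathione transferase-like gene to 0. The electron donors fell from 1 to 0 under both read filters. TBXAS1 and PTGIS, P450 genes outside the symbol pattern, fell from 1 call to 0 under both filters and when the interval had to leave out no change. The other xenobiotic enzymes fell from 12 to 6 with at least 10 reads in each library. GSTA4 and EPHX2 lost their calls under total count scaling, upper-quartile scaling and FPKM. Sums of near-identical genes, chosen after seeing the data, changed no direction. Depth limits members under 10 reads, and genes with 1 read in a library have falls of poorly known size. No paired analysis was possible because 1 library stands for each condition.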

Other observations

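By the pathway annotation in the authors' files, the members belonged to overlapping routes. Across all genes tested 30.9% were called, and 66.5% of those with 10 to 99 reads. Of 20 compared members annotated to metabolism of xenobiotics by cytochrome P450, 4 were called higher and 6 lower. In chemical carcinogenesis, 23 compared members held 6 higher and 6 lower, and in glutathione metabolism 13 held 2 higher and 4 lower. In retinol metabolism, all 5 compared members were called, with CYP1A1 and CYP1A2 higher and CYP2C8, CYP2S1 and CYP3A5 lower, although the interval of CYP3A5 included no change and each of these genes but CYP1A1 had under 100 reads in both libraries together. In steroid hormone biosynthesis 5 compared members held 2 higher and 1 lower, CYP3A5 again. These counts share genes, and the genes are listed by their annotation, not by their role in these cells.

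The forkhead motif GTAAACA, searched on both strands, was found in the 250 bases upstream of the start in 1 of the 33 compared members whose window was given (3.03%) and in 2.98% of all promoters. This describes the letters of the windows alone.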
